A study of Homo sapiens with 6 samples.

Results

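X-rays given straight after severe heat are described here by 2 of the 6 arrays of the study: IR_HT 44, from A549 cells heated to 44 °C and then irradiated, and HT 44, from cells given the same heat alone. The quantity read from this pair is the level of each gene in IR_HT 44 minus its level in HT 44, on the log2 scale, ranked among the 8604 of 14884 named genes whose mean log2 level over the 6 arrays was 5 or more. It was set beside the same difference at 37 °C, IR minus control, to see which radiation effects were kept or missing after 44 °C. A549 is an established line from a human lung adenocarcinoma.

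There were 6 groups of 1 array each. All cells were first grown for 24 h at 37 °C. The control received nothing more, and IR received 3 Gy of X-rays and 3 h at 37 °C. HT 41.5 and HT 44 spent 1 h at 41.5 °C or 44 °C and 3 h at 37 °C. IR_HT 41.5 and IR_HT 44 received 3 Gy at the end of the same 1 h of heat, and how long they were then kept is not stated, so IR_HT 44 and HT 44 may differ in time as well as in radiation. For the control the labels stop at the 24 h of growth. The sources used here do not say whether the arrays came from separate cultures, so every p-value measures spread among single arrays that could be technical.

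Ionising radiation breaks DNA, and the break-sensing kinases ATM and ATR stabilise p53, a transcription factor that raises genes of cell cycle arrest, DNA repair and cell death. Through the cell cycle inhibitor p21 the same pathway lowers the genes of mitosis, which are repressed by the DREAM complex at sites in their promoters. Severe heat unfolds proteins, activates heat shock factors and inhibits much of transcription and DNA repair, and it is known to make cells more sensitive to radiation.

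The 6 arrays had median log2 levels between 4.39 and 4.46 over all 53617 features. Across all features the 44 °C pair correlated at r = 0.9893, the 37 °C pair at 0.9855 and the 41.5 °C pair at 0.9857, which describes the arrays only, since features are not independent replicates. Of the lung epithelial and keratin markers 15 were measured, which here means that a feature carried their gene symbol. Of these, 8 had a mean log2 level of 5 or more, among them KRT18, KRT7, KRT8 and EPCAM. The same held for 2 of 4 leukocyte markers (CD68 and CD14), 1 of 6 endothelial markers (CLDN5) and 1 of 3 fibroblast markers (THY1). The lowest and highest median level of a list on any array were 5.03 and 5.30 for the epithelial, 4.84 and 5.27 for the leukocyte, 4.0 and 4.14 for the endothelial and 2.62 and 3.15 for the fibroblast markers. NKX2-1, SFTPC, SFTPA1 and NAPSA, markers of lung lineage, had means under 5. The lowest value on any array was 0.59, so no marker reads 0, and no member of these lists differed 1.5-fold within the 44 °C pair.

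Few named genes differed in level between heat at 44 °C with and without radiation. A difference of at least 1.5-fold (0.585 on the log2 scale) was counted as past the threshold, a rule of size without a test because each side is 1 array. In the 44 °C pair 20 genes were higher (0.232% of the 8604) and 23 lower (0.267%), or 43 in either direction (0.5%). In the 37 °C pair 53 were higher (0.616%) and 59 lower (0.686%), or 112 in all (1.3%), and in the 41.5 °C pair 69 were higher (0.802%) and 79 lower (0.918%), or 148 in all (1.72%). The spread of all differences was also smallest at 44 °C, with an SD of 0.167 against 0.189 at 37 °C and 0.205 at 41.5 °C. Of the genes, 64.2% lay within 1.1-fold in the 44 °C pair, 61.5% in the 37 °C pair and 59.3% in the 41.5 °C pair. The whole 44 °C pair was shifted slightly upward, with a median difference of 0.02 and 56.8% of genes above 0.

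The genes past 1.5-fold after 44 °C were mostly dim. Their median level was 5.47 against 6.49 for all 8604, 25 of the 43 were protein-coding (58.1% against 90.7%) and 11 were microRNA genes (25.6% against 3.01%). The genes past 1.5-fold in the other pairs leaned the same way, less far. At 37 °C their median level was 5.97, with 67.9% protein-coding and 12.5% microRNA genes. At 41.5 °C these values were 6.28, 79.1% and 8.78%. Among the 1250 genes with a mean level of 8 or more, only CLU and PURPL passed, against 12 in the 37 °C pair and 17 in the 41.5 °C pair. Among the 1817 genes between 7 and 8 only PCNA-AS1 passed. Just inside the threshold lay ZNF175 (0.591) and MADCAM1 (-0.587), and just outside it DDX11L2 (0.579) and ZNF107 (-0.581). At the level limit the nearest mean inside was 5.0004 and the nearest outside was that of TBX6, 4.9996.

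The differences at 44 °C did not follow those at 37 °C or 41.5 °C. Across the 8604 genes the differences at 44 °C and 37 °C correlated at r = -0.032 (Spearman rho -0.037), those at 44 °C and 41.5 °C at r = -0.054 (rho -0.071), and those at 37 °C and 41.5 °C at r = 0.211 (rho 0.114). The 3 pairs share no array. Genes are not independent replicates, so these values describe the pairs and carry no p-value.

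**Figure D1:**
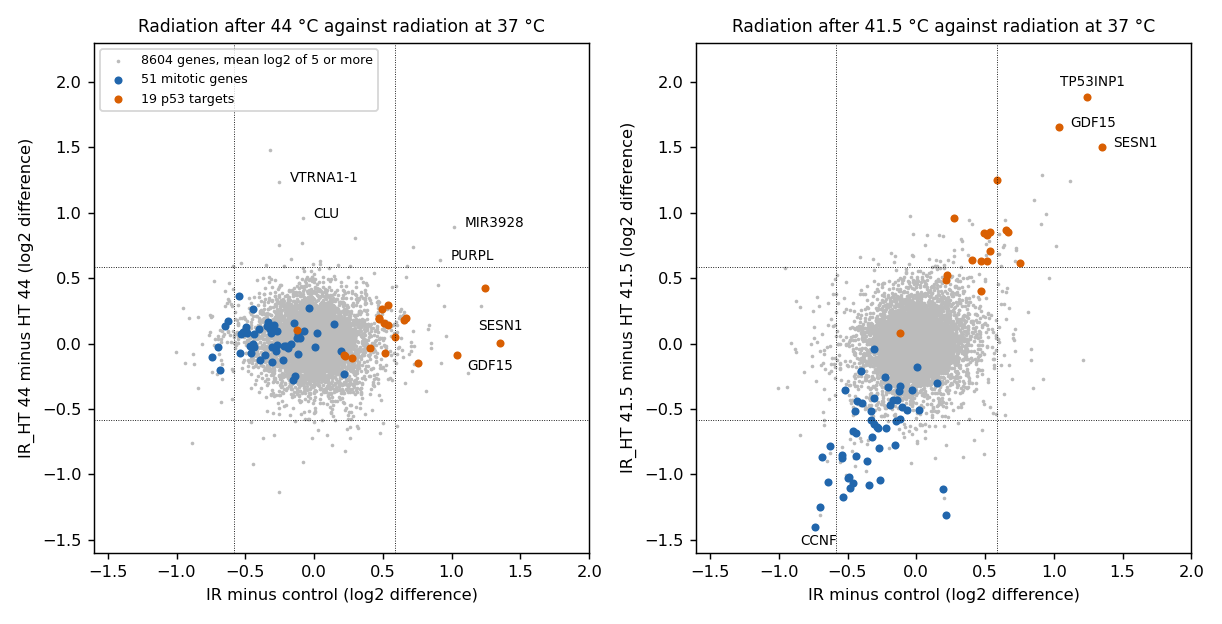
Log2 difference with against without radiation after 44 °C (left) and after 41.5 °C (right), each plotted against the difference at 37 °C; grey points are the 8604 genes with a mean log2 of 5 or more, blue points 51 mitotic genes, orange points 19 p53 targets, and dotted lines mark 1.5-fold. On the left both coloured groups lie in a band around 0 on the vertical axis (-0.28 to 0.42), and on the right they stretch along the diagonal.

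Most of the genes past 1.5-fold with radiation at 37 °C were within 1.5-fold when it followed 44 °C. Of the 112 genes past 1.5-fold for IR minus control, 5 were past 1.5-fold in the same direction after 44 °C, 2 in the opposite direction and 105 in neither. Of all 8604 genes 0.232% were past the threshold upward in that pair and 0.267% downward. After 41.5 °C, 34 of the same 112 passed in the same direction, where the shares of all genes were 0.802% upward and 0.918% downward. The 53 genes raised at 37 °C had a median of 0.67 there, 0.40 after 41.5 °C and 0.08 after 44 °C. The 59 genes lowered at 37 °C had a median of -0.67 there, -0.11 after 41.5 °C and 0.06 after 44 °C. Both sets were chosen by their 37 °C values, so their medians there are past 1.5-fold by the choice itself. Some shrinkage in any other pair follows from that choice too. Signs matched at 44 °C for 33 of the 53 and 21 of the 59, and at 41.5 °C for 41 and 40. Of all 8604 genes 56.8% lay above 0 at 44 °C and 48.0% at 41.5 °C.

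The 34 genes past 1.5-fold the same way at both 37 °C and 41.5 °C form a set. Apart from the level limit, taken over all 6 arrays, it rests on 4 arrays, none of them in the 44 °C pair. Of its 23 raised genes 2 passed after 44 °C, PURPL and MIR3928, and their median there was 0.09 against 0.72 at 37 °C and 0.86 at 41.5 °C. Of its 11 lowered genes 0 passed, and the median was 0.03 against -0.67 and -0.87. This set was chosen after the values were seen, and its medians at 37 °C and 41.5 °C are past 1.5-fold by the choice itself.

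A model over all 6 arrays put a test on the same contrast. It was fitted with limma, with temperature as a factor, 1 radiation term shared by 37 °C and 41.5 °C and another at 44 °C. Its single residual degree of freedom is the disagreement between the radiation differences at 37 °C and 41.5 °C, which holds noise and any interaction of mild heat with radiation, and the 44 °C arrays are assumed to vary like the others. At an adjusted p under 0.05 the shared term called 87 genes (0.585% of 14884), 40 higher and 47 lower, and the 44 °C term called 1 (0.00672%), CLU, with 603 at an unadjusted p under 0.05. The difference of the terms called 5 genes (0.0336%): GDF15, SESN1 and PCNA-AS1 below 0, CLU and VTRNA1-1 above, with 910 at an unadjusted p under 0.05. All 5 calls were lost after median centring (adjusted p from 0.0619 to 0.0899 in limma). Of the 87 genes called at the cooler temperatures, 2 were past 1.5-fold the same way after 44 °C and 1, PCNA-AS1, the opposite way. Without the intensity trend in limma's variances the counts for the shared term, the 44 °C term and the difference were all 0, with 946, 635 and 807 genes at an unadjusted p under 0.05. For the 44 °C term, 603 and 635 are both smaller shares of 14884 than the 0.05 that p-values give when no gene responds.

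The p53 targets, the genes that p53 raises after DNA damage, were higher with radiation at 37 °C and 41.5 °C and lay near 0 after 44 °C. Of 36 listed genes 19 were measured. In the 44 °C pair 0 of them passed 1.5-fold, their median difference was 0.10 (from -0.15 to 0.42) and 12 lay above 0. Of all 14884 genes 52.0% lay above 0 in that pair. At 37 °C 7 passed, all higher, with a median of 0.51, and at 41.5 °C 15 passed, all higher, with a median of 0.83. Of all 14884 genes 0.752% were past 1.5-fold upward at 44 °C, 1.55% at 37 °C and 1.65% at 41.5 °C, or 1.83%, 3.02% and 3.31% in either direction, with medians of 0.01, 0.00 and 0.00. In limma the shared term called 13 of the 19, all higher, and the difference of the terms lay below 0 in 18, with GDF15 and SESN1 called and 15 at an unadjusted p under 0.05. Of all 14884 genes 7128 (47.9%) lay below 0 and 910 (6.11%) had such a p. Values above 0 in both cooler pairs and near 0 after 44 °C give a difference below 0 by arithmetic. The 19 genes share the same 6 arrays, and the list was chosen with earlier results of these data known. Their counts are therefore descriptive and not independent support. CDKN1A, MDM2, BTG2 and FAS, central members of this pathway, were not analysed here.

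SESN1, a sestrin that restrains growth signalling under stress and lies on chromosome 6, had the largest rise at 37 °C. Its level was 5.73 in the control and 7.08 in IR, 5.64 in HT 41.5 and 7.14 in IR_HT 41.5, and 5.45 in both HT 44 and IR_HT 44. Both cooler irradiated arrays stood apart from the other 4, which lay between 5.45 and 5.73. The rise was 2.55-fold at 37 °C and 2.83-fold at 41.5 °C, against 1.00-fold at 44 °C, and the radiation term at 44 °C was lower than the shared one by 1.42 ± 0.19 (SE, limma, adjusted p = 0.0392).

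GDF15, a secreted stress cytokine of the TGF-beta family encoded on chromosome 19, showed the same order. It was 8.68 in the control and 9.71 in IR, 8.02 in HT 41.5 and 9.67 in IR_HT 41.5, and 8.96 in HT 44 and 8.87 in IR_HT 44. The cooler irradiated arrays were the highest, and IR_HT 44 lay just under its own unirradiated partner. The rises of 2.05-fold and 3.14-fold compared with a difference of -0.09 at 44 °C, and the difference of the radiation terms was -1.44 ± 0.20 (SE, limma, adjusted p = 0.0392). This call was lost in 3 of 5 alternatives: with robust moderation (adjusted p = 0.22 in limma), after median centring (0.0899) and without the intensity trend (0.882).

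TP53INP1, which promotes p53-dependent death and autophagy, had the largest 44 °C difference of the 19. It was 5.91 and 7.15 at 37 °C, 5.06 and 6.94 at 41.5 °C, and 5.90 and 6.32 at 44 °C, without and with radiation. The 44 °C difference of 0.42 (1.34-fold) was short of 1.5-fold, against 2.37-fold and 3.70-fold at the cooler temperatures. The difference of the terms, -1.14 ± 0.24, was not called (SE, limma, adjusted p = 0.289).

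By role, the 7 arrest genes had a median of 0.00 at 44 °C, against 0.59 at 37 °C and 0.96 at 41.5 °C. PLK3 (0.18) and PLK2 (0.14), polo-like kinases of the stress response, were the highest, and SERTAD1, a cyclin-dependent kinase regulator, was the lowest (-0.11). The 8 genes of cell death and survival had a median of 0.06, against 0.51 and 0.73. BBC3, which encodes the BH3 protein PUMA, was at 0.29, and its levels were 5.48 and 6.01 at 37 °C, 5.39 and 6.24 at 41.5 °C, and 5.64 and 5.93 at 44 °C. TRIAP1, an inhibitor of apoptosis induced by p53, was at -0.15 after rises of 0.76 and 0.62. The 3 regulators of p53, CCNG1, MDM4 and TP53INP1, had a median of 0.19, against 0.47 and 0.63. The repair gene RRM2B, a p53-induced subunit of ribonucleotide reductase, was at 0.19, against 0.47 and 0.40. MDM4, which binds and restrains p53, was the 1 gene of the 19 whose 44 °C difference (0.10) lay above its shared radiation term.

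Some of these genes were already higher after heat alone. HT 44 lay at least 1.5-fold above the control for 4 of the 19: SERTAD1 (2.29 higher), PMAIP1 (1.14), SESN2 (1.1) and TRIAP1 (0.96). Of all 14884 genes 4.17% lay as far above. SESN2, another sestrin, which the integrated stress response also raises, was 6.22 and 6.80 at 37 °C, 5.95 and 7.20 at 41.5 °C, and 7.32 and 7.37 at 44 °C. Both 44 °C arrays were thus above the irradiated array at 37 °C. In IR_HT 44 the level reached that of IR for 7 of the 19 genes and was lower for 12, a share near that of all genes, of which 6362 of 14884 (42.7%) reached it. Whether an earlier rise limited a further one was not tested.

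**Figure D2:**
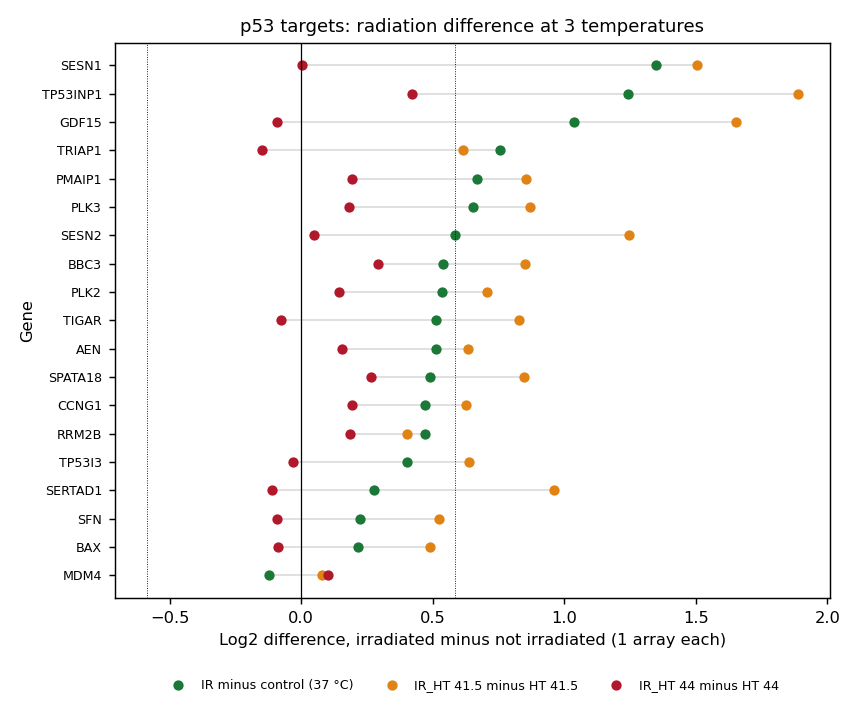
Log2 difference with against without radiation for the 19 measured p53 targets (rows) at 37 °C (green), 41.5 °C (orange) and 44 °C (red), from 1 array on each side; dotted lines mark 1.5-fold. The red points lie between -0.15 and 0.42, and for 18 of the 19 genes the red point is nearer to 0 than both others, as it is for 35.3% of all genes.

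Genes of mitosis, which build the spindle, attach chromosomes and split the cell, were lower with radiation at 37 °C and 41.5 °C but not after 44 °C. Of 69 listed genes 51 were measured. After 44 °C 0 passed 1.5-fold, the median difference was 0.04 (from -0.28 to 0.36), and 26 lay above 0 and 25 below. Of all 14884 genes 52.0% lay above 0 in that pair. At 37 °C 5 passed, all lower, with a median of -0.31, and at 41.5 °C 28 passed, all lower, with a median of -0.64 and 0 genes above 0. Of all 14884 genes 1.07% were past 1.5-fold downward at 44 °C, 1.48% at 37 °C and 1.66% at 41.5 °C. In limma the shared term called 23 of the 51, all lower. The difference of the terms lay above 0 in all 51, with 33 at an unadjusted p under 0.05 and 0 called, against 52.1% of all 14884 genes above 0 and 6.11% at such a p. Values below 0 in both cooler pairs and near 0 after 44 °C give a difference above 0 by arithmetic. The members share the same 6 arrays, and the list was chosen with earlier results of these data known. These counts are therefore descriptive and not independent support. In bulk RNA fewer cells in mitosis and less RNA per cell cannot be told apart.

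PLK1, the polo-like kinase that drives entry into mitosis, gives the pattern at a high level. It was 9.80 in the control and 9.26 in IR, 9.71 in HT 41.5 and 8.85 in IR_HT 41.5, and 9.62 in HT 44 and 9.54 in IR_HT 44. The 4 others lay between 9.54 and 9.80, and both cooler irradiated arrays lay below them. The shared radiation term was -0.70 ± 0.09 (SE, limma, adjusted p = 0.00339), whereas the 44 °C difference was -0.08.

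CENPA, the histone variant that marks centromeres, was 7.77 and 7.08 at 37 °C, 7.64 and 6.39 at 41.5 °C, and 7.65 and 7.62 at 44 °C, without and with radiation. It was lower by 1.62-fold and 2.38-fold at the cooler temperatures and by 1.02-fold after 44 °C. CDCA8, borealin of the chromosomal passenger complex, was 7.42 and 6.77, 7.47 and 6.41, and 7.04 and 7.18. Its 44 °C difference, 0.14, pointed up. The largest fall of the list at both cooler temperatures was that of CCNF, a cyclin of G2 (-0.74 and -1.40), which was at -0.10 after 44 °C.

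The promoters of these genes carry the letters by which this class is known. In the RefSeq promoter table (GRCh38.p14), which gives 250 bases before and 50 after each gene's start, TTTGAA, a CHR element bound by the DREAM complex, and CCAAT, the box bound by NF-Y, were searched on both strands. Of the 45 measured mitotic genes with an entry, 29 held TTTGAA (64.4%), against 15.4% of all 27305 promoters and 11.8% of the 10749 of genes on the array. CCAAT was found in 34 (75.6%, against 35.7% of all promoters), and both letters in 25 (55.6%, against 6.08%). Of 17 p53 targets with an entry, 1 held TTTGAA (5.88%) and 9 held CCAAT (52.9%). The 150 bases before the start are shown for 3 genes that hold both letters. All 3 fell in both cooler pairs and not after 44 °C. They are PLK1 at chr16:23678739-23678888, CENPA at chr2:26785906-26786055 and CDCA8 at chr1:37692366-37692515, all on the plus strand, read 5′ to 3′ toward the start, with TTTGAA and the NF-Y box (CCAAT, or ATTGG on the other strand) in capitals.
PLK1: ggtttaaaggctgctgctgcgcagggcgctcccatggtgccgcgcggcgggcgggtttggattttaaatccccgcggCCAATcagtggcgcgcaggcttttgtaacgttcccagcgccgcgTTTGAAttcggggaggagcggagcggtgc
CENPA: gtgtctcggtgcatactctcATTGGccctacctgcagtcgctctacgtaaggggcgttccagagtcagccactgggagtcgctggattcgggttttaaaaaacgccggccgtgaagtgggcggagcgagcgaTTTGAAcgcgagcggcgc
CDCA8: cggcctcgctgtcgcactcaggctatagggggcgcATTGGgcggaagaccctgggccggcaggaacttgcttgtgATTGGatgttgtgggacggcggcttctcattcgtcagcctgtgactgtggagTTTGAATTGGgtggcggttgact
TTTGAA begins 29 bases before the start in PLK1, 18 in CENPA and 23 in CDCA8, where it overlaps the last of 3 NF-Y boxes. Other mitotic genes, among them CCNB1, BUB1 and KIF20A, hold CCAAT but no TTTGAA. A match is a description of letters, not evidence of binding in these cells.

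By role, the 13 kinases, cyclins and phosphatases had a median of -0.06 after 44 °C, against -0.31 at 37 °C and -0.58 at 41.5 °C. AURKA, a kinase of spindle poles, was at 0.13 and CDKN3, a phosphatase of cyclin-dependent kinases, at -0.25, against -1.08 and -0.43 at 41.5 °C. The 10 kinetochore and checkpoint genes had a median of 0.03, against -0.32 and -0.55, and held the highest member of the list, NDC80, a subunit that binds microtubules (0.36, against -0.54 and -0.88). The 14 spindle and motor genes had a median of 0.09, against -0.33 and -0.74. KIF2C, a kinesin that shortens microtubules, was at 0.27 and KIF20A, a kinesin of cytokinesis, at -0.01, against -0.68 and -1.04 at 41.5 °C. The 9 genes of cytokinesis and proteolysis had a median of 0.00, against -0.32 and -0.71, and the lowest member, PTTG1, which encodes securin (-0.28). The 5 genes of chromosome structure had a median of 0.15, against -0.12 and -0.51, and all 5 lay above 0, as did 52.0% of all 14884 genes.

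After heat alone, HT 44 was at least 1.5-fold below the control for 1 of the 51 mitotic genes, GTSE1, a microtubule-bound regulator of p53 (-0.70), and above it for 0. Of all 14884 genes 3.04% were lower and 4.17% higher, so these counts are near those of all genes. In IR_HT 44 the level was at or above that of IR for 36 of the 51, against 42.7% of all 14884 genes. Of the 3 shown above, CENPA stood 0.13 and PLK1 0.18 under the control in HT 44, and CDCA8 0.38 under.

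**Figure D3:**
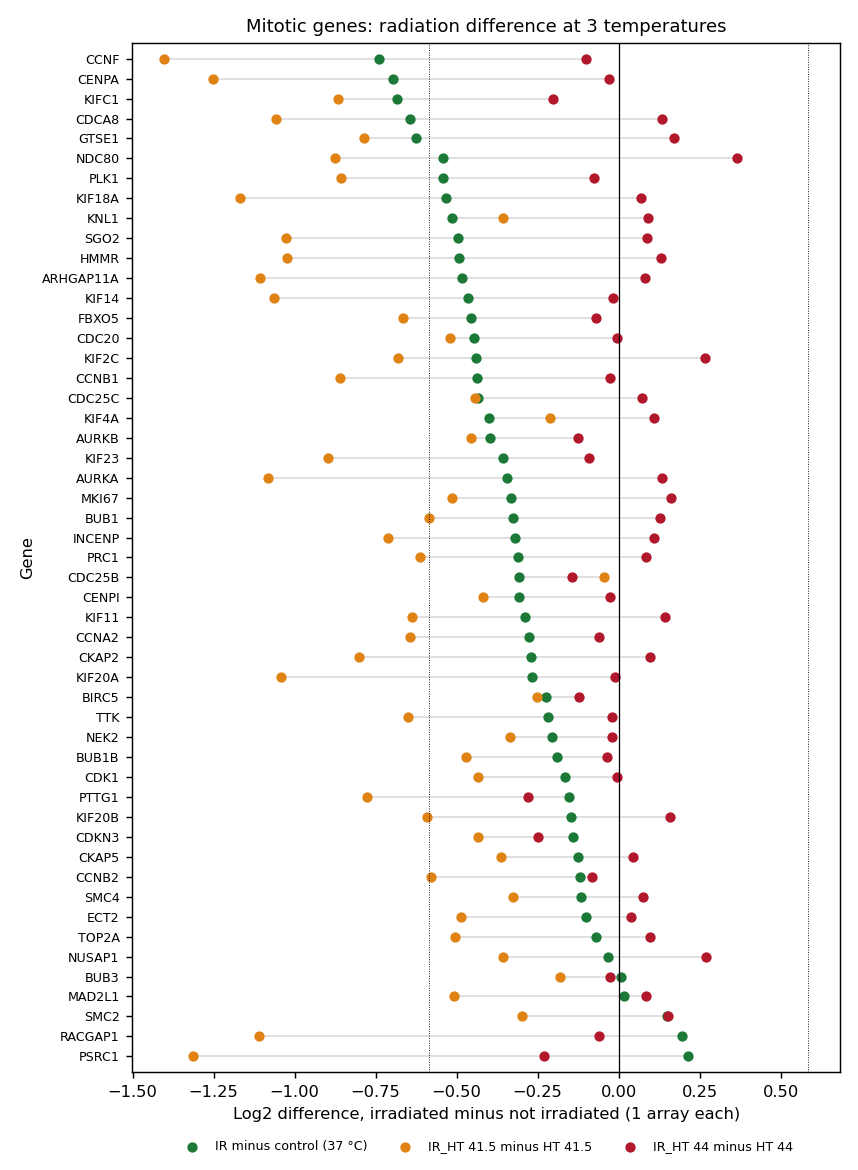
Log2 difference with against without radiation for the 51 measured mitotic genes (rows, ordered by the 37 °C difference) at 37 °C (green), 41.5 °C (orange) and 44 °C (red), from 1 array on each side; dotted lines mark 1.5-fold. The red points scatter around 0, 26 above and 25 below, and the orange points are all below 0.

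Of the 5 genes that kept the direction of 37 °C after 44 °C, PURPL and MIR3928 also moved that way at 41.5 °C. PURPL, a long noncoding RNA on chromosome 5 that p53 raises and that lowers p53 in turn, was 8.10 and 9.01 at 37 °C, 7.46 and 8.75 at 41.5 °C, and 7.54 and 8.18 at 44 °C. Each irradiated array was above its partner, by 1.89-fold, 2.44-fold and 1.56-fold. IR_HT 44 lay 0.83 under IR, and HT 44 lay 0.55 under the control. The difference of its radiation terms was -0.46 ± 0.17 (SE, limma, adjusted p = 0.693), and its 44 °C term was not called (adjusted p = 0.655).

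MIR3928 was 4.32 and 5.33, 4.87 and 5.62, and 4.64 and 5.53 at the 3 temperatures, without and with radiation. All 3 irradiated arrays were above all 3 others. Its mean of 5.05 passed the level limit only through the irradiated arrays, since the 3 others lay under 5. The rises were 2.02-fold, 1.68-fold and 1.86-fold, and the radiation terms differed by 0.01 ± 0.25 (SE, limma, adjusted p = 0.999). The other 3, chosen at 37 °C and past 1.5-fold at 44 °C, did not pass at 41.5 °C. They were MIR3621 (0.72 at 37 °C, -0.05 at 41.5 °C, 0.74 at 44 °C), ZNF175 (0.67, 0.27, 0.59), a zinc finger repressor, and MIR548V (-0.88, -0.04, -0.76). The 2 genes that turned were MIR191 (0.60 at 37 °C, 0.13 at 41.5 °C, -0.63 at 44 °C) and MIR421 (-0.59, -0.18, 0.59). Neither passed 1.5-fold at 41.5 °C. These features cannot separate a mature microRNA from its longer precursor RNAs.

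The mature forms of the microRNAs in this comparison, from RefSeq (GRCh38.p14), are shown because these genes kept or turned their direction, or moved with GDF15, and MIR548V is not shown. Bases 2 to 8, the seed, are in capitals, and no seed is shared between them. MIR3928 is on the minus strand at chr22:31160062-31160083 and MIR3189 on the plus strand inside GDF15, at chr19:18386570-18386594 for its 5p arm.
hsa-miR-3928-3p: gGAGGAACcuuggagcuucggc
hsa-miR-3621: cGCGGGUCggggucugcagg
hsa-miR-191-5p: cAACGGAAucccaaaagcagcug
hsa-miR-191-3p: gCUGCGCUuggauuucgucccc
hsa-miR-421: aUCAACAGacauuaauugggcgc
hsa-miR-3189-5p: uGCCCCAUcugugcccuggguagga
hsa-miR-3189-3p: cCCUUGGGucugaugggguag

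MIR3189 moved with the gene it lies in. It was 5.62 and 6.74 at 37 °C, 5.4 and 6.64 at 41.5 °C, and 4.96 and 4.74 at 44 °C, without and with radiation. As for GDF15, the cooler irradiated arrays were the highest and IR_HT 44 lay under HT 44. The difference of the radiation terms, -1.40 ± 0.21, missed the threshold (SE, limma, adjusted p = 0.0529). Signal from the host and the microRNA gene cannot be told apart on these features.

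Other strong rises of 37 °C split in the same way. ACER2, a ceramidase that p53 raises, was at 0.85 at 37 °C, 1.1 at 41.5 °C and 0.01 after 44 °C. ZNF79, a zinc finger gene, was at 0.94, 0.99 and 0.29, and the antisense RNA GAS6-AS1 at 0.90, 0.92 and 0.44. The other feature of GAS6-AS1 was at 0.04 after 44 °C. ATF3, a stress-induced repressor, was at 0.96, 0.50 and 0.06, from a level that 44 °C alone had raised by 2.25. NF1P2 (1.21) and MIR4481 (0.92) did not repeat at 41.5 °C (-0.13 and -0.27) and were at 0.29 and -0.15 after 44 °C. Of the 12 largest falls at 37 °C, from LINC01004 (-1.0) to ZNF551 (-0.76), 11 stayed within 1.5-fold after 44 °C and the other was MIR548V. TROAP, a spindle-associated protein, was among them (-0.94 at 37 °C, -0.33 at 41.5 °C, -0.15 after 44 °C). Of the same 12, only LOC100288637 was also past 1.5-fold at 41.5 °C (-0.70). Most of these falls were thus not past the threshold in the other cooler pair either.

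CLU, which encodes the extracellular chaperone clusterin, was the 1 gene called for radiation at 44 °C. It was 9.17 in the control and 9.09 in IR, 9.32 in HT 41.5 and 9.20 in IR_HT 41.5, and 9.24 in HT 44 and 10.20 in IR_HT 44. The other 5 arrays lay between 9.09 and 9.32, and IR_HT 44 stood apart from all of them. The rise was 1.95-fold, or 0.96 ± 0.11 (SE, limma, adjusted p = 0.0200), and the radiation terms differed by 1.06 ± 0.14 (adjusted p = 0.0392). In the additive model, with 1 radiation term over all 3 pairs, its value was 0.25 and it was not called (adjusted p = 0.997).

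VTRNA1-1, a vault RNA made by RNA polymerase III, followed. It was 5.43 and 5.17 at 37 °C, 5.56 and 5.01 at 41.5 °C, and 5.60 and 6.84 at 44 °C. The irradiated array was under its partner in both cooler pairs and above it, 2.35-fold, after 44 °C. The radiation terms differed by 1.64 ± 0.23 (SE, limma, adjusted p = 0.0392), and the 44 °C term alone was not called (1.23 ± 0.18, adjusted p = 0.0738). Each of these rises rests on 1 array, IR_HT 44, whose own error cannot be measured.

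**Figure D4:**
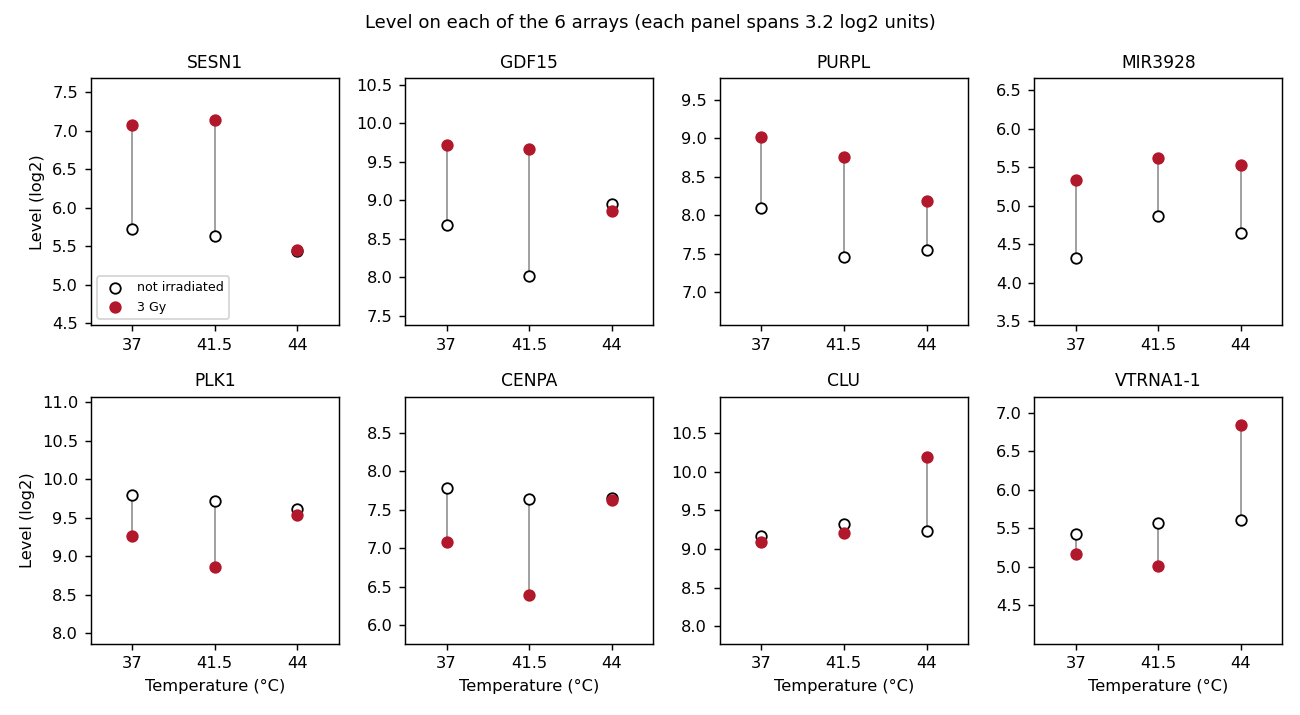
Log2 level of 8 genes on each of the 6 arrays against temperature, open circles without radiation and filled circles with 3 Gy, joined by a line within each pair; every panel spans the same number of log2 units. SESN1, GDF15, PLK1 and CENPA have long lines at 37 °C and 41.5 °C and short ones at 44 °C, PURPL and MIR3928 have lines pointing up at all 3, and CLU and VTRNA1-1 have their longest line at 44 °C.

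PCNA-AS1, a noncoding RNA antisense to PCNA on chromosome 20, turned direction. It was 7.02 and 7.52 at 37 °C, 7.01 and 7.48 at 41.5 °C, and 7.19 and 6.58 at 44 °C, without and with radiation. It was the highest in both cooler irradiated arrays and the lowest in IR_HT 44. The radiation terms differed by -1.1 ± 0.16 (SE, limma, adjusted p = 0.0392), a call also lost with robust moderation (adjusted p = 0.0602). PCNA itself, the sliding clamp of DNA replication and a p53 target, was 9.88 and 10.24, 9.88 and 10.19, and 9.72 and 9.58, in the same order, and its difference of terms was not called (-0.48 ± 0.14, adjusted p = 0.470). Signal from the overlapping sense and antisense RNA may not be separable.

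The highest value after 44 °C belonged to PA2G4P4, a pseudogene of the growth regulator PA2G4, at 1.48. Its level was between 5.21 and 5.53 on the 4 cooler arrays, 3.56 in HT 44 and 5.04 in IR_HT 44, so that HT 44 was the array that stood apart. The lowest belonged to PMS2P9, a pseudogene of the mismatch repair gene PMS2, at -1.14, with 5.91 in HT 44, 4.77 in IR_HT 44 and at least 6.06 elsewhere. Both share sequence with other genes and are uncertain as single genes, and neither was called in limma (adjusted p = 0.0738 and 0.0835). After CLU, VTRNA1-1 and MIR3928, the rest of the 12 highest lay between 0.61 and 0.81. These were AQP12B, MIR1206, ZNF350, MIR3621, SEPTIN7P14, PURPL, the homeobox gene ALX1 and ZNF224, whose other feature was at -0.07. The rest of the 12 lowest lay between -0.92 and -0.69. They were MIR4688, GRAPL, SFRP5, MIR4516, MIR548V, MIR3147, DTX1, CRLF2, FUZ, BCL7C and MIR4710, whose other feature was at -0.35.

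Of the 20 genes higher with radiation after 44 °C, 16 stood below the control in HT 44, and of the 23 lower genes 18 stood above it, while of all 8604 genes 5265 stood below and 3333 above. ALX1 was 7.32 in the control, 6.27 in HT 44 and 6.90 in IR_HT 44. MIR1206 was 5.95, 3.79 and 4.56 on the same 3 arrays, and MIR421 was 6.87, 4.94 and 5.53. On these 3 genes and on PA2G4P4 the irradiated array lay between HT 44 and the control. HT 44 enters both differences, so they are not independent of each other.

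By the feature with the highest mean, the other gene lists had 0 members past 1.5-fold after 44 °C (1 ribosomal protein gene, under either other scaling). The 13 heat shock chaperones, of which HT 44 had raised 10 at least 1.5-fold over the control (4.17% of all genes), had a median difference of 0.08, with HSPA6 at -0.21 and HSPB8 at 0.28. The 23 immediate early genes, 13 of them raised by HT 44 (again against 4.17%), had a median of 0.03, with FOS at -0.21 and DUSP2, a nuclear phosphatase, at -0.43. Another feature of FOS was at -0.74 and another of FOSB at -0.8, both past 1.5-fold, and these were the only such cases among the 28 list members with several features. The 11 genes of hypoxia and glycolysis all lay above 0 (9 of 11 after a further quantile normalization), with a median of 0.12. The lowest, HK2, was at 0.0002, and of all 14884 genes 52.0% lay above 0. The highest were ANKRD37 (0.39) and EGLN3 (0.35), both induced by hypoxia. Across all genes with a mean level of 5 or more the median was 0.02.

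Genes of DNA metabolism lay near 0 too. The 32 genes of G1/S and replication had a median of -0.02, from SLBP, the histone stem-loop binding protein (-0.26), to CDC7, a kinase of replication origins (0.26). DBF4, the partner of CDC7, was at 0.21 after 44 °C, against -0.45 at 37 °C and -0.94 at 41.5 °C. The 13 genes of DNA break signalling had a median of 0.05, the 11 of recombination and the Fanconi pathway 0.06, and the 4 of end joining 0.02. RAD50, part of the complex that senses breaks, was at 0.20, and RAD54L, a recombination motor, at -0.20.

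Survival, inflammatory and stress pathways had medians between -0.05 and 0.05. The 18 BCL2 family genes were at -0.04, with BBC3 and PMAIP1, both also p53 targets, as the highest and the anti-apoptotic BCL2L1 at -0.26. The 13 NF-kappaB and inflammatory genes were at -0.05, with the chemokines CXCL2 at 0.44 and CXCL8 at -0.38. The integrated stress response (10 genes) and NRF2 targets (4) were at 0.02, the unfolded protein response (6) at 0.05, and interferon-stimulated genes (12) and TGF-beta and BMP targets (8) at 0.01. Cholesterol synthesis (9) was at 0.00 and the 46 cytosolic ribosomal protein genes at -0.01, with RPL31 the highest at 0.57. Housekeeping genes (6) were at -0.06, epithelial markers (15) and endothelial markers (6) at 0.09, leukocyte markers (4) at -0.03 and fibroblast markers (3) at -0.08. Of the replication-dependent histones 0 had a named feature here, and whether unnamed features hold them is not known. The medians of 8 lists, all within 0.04 of 0, reached 0 or changed sign under another scaling, that of the mitotic genes among them (0.00 after quantile normalization).

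**Figure D5:**
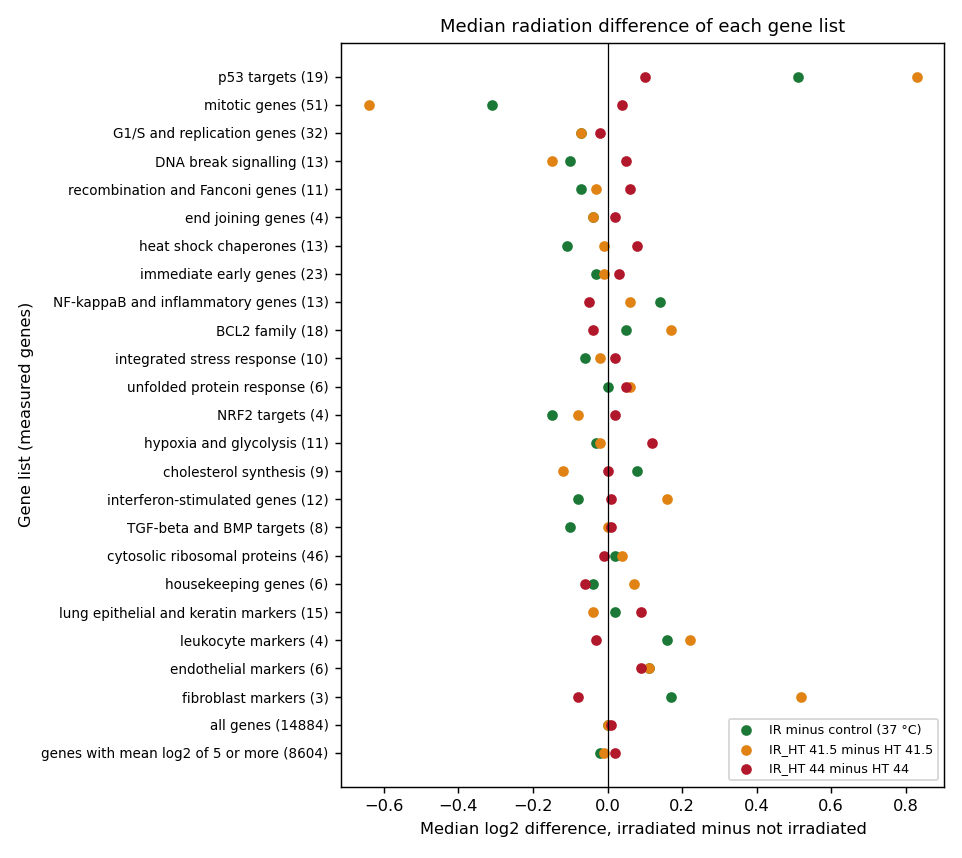
Median log2 difference with against without radiation of each gene list (measured genes in brackets) at 37 °C (green), 41.5 °C (orange) and 44 °C (red). The red points of all lists lie between -0.08 and 0.12, and p53 targets and mitotic genes have the widest gaps between red and the other colours among lists of more than 3 genes.

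Among the features without a gene name, too, the 44 °C pair had the fewest past 1.5-fold. Of 11643 unnamed features with a mean level of 5 or more, 286 were higher and 232 lower past 1.5-fold in the 44 °C pair (4.45%), against 6.62% at 37 °C and 5.81% at 41.5 °C. These shares were larger than those of the 8604 named genes, which were 0.5% at 44 °C, 1.3% at 37 °C and 1.72% at 41.5 °C.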

How the data were processed

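Transcripts were measured in 6 samples on Affymetrix arrays from 300 ng of total RNA each. Per the submitters' processing notes, the authors used Affymetrix Expression Console 1.1 and RMA, and the values they deposited are log2 levels. The genome build: not given in the sources used here. Of 53617 features, 16098 have 1 gene symbol and 37519 are unnamed here. For 779 genes with several features the one with the highest mean was used, giving 14884 genes. Single arrays were compared by subtraction and counted past 1.5-fold, among genes with a mean log2 of 5 or more, or over all measured members of a list. The model used limma 3.58.1 in R 4.3.3 on all 6 arrays with a trend of variance on intensity (11.36 prior degrees of freedom, median SD 0.137). Its tests were two-sided, with Benjamini-Hochberg adjustment over 14884 genes. It was also run on data simulated with equal noise on all arrays. That run cannot test the model's assumptions, since the simulated data were built to meet them. The number of arrays limits precision. Named genes are the 12 highest and 12 lowest differences at 44 °C and 37 °C, genes kept or turned, the extremes of each list, a short p53 and mitotic set and the genes called for the difference. Genes chosen after their values were seen are those given as examples besides these. Members and lists were chosen with earlier results of these data known. Alternatives varied the fold, the level filter, the scaling, the feature choice and the moderation.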

Additional observations from a re-analysis of the deposited data

Results flagged for a closer look

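For 5 genes the effect of radiation after 44 °C differed from that at 37 °C and 41.5 °C by a test of the difference itself in limma. The differences of the radiation terms on the log2 scale were -1.44 for GDF15, -1.42 for SESN1, -1.1 for PCNA-AS1, 1.06 for CLU and 1.64 for VTRNA1-1, each with an adjusted p of 0.0392. All 5 calls were lost without the intensity trend (adjusted p = 0.882) and after median centring (from 0.0619 to 0.0899), and those of GDF15 (0.22) and PCNA-AS1 (0.0602) also with robust moderation in limma. Each effect after 44 °C rests on 1 array with and 1 without radiation.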

How the results depend on the processing

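Each group is 1 array, so a difference within a pair has no error of its own. No paired analysis was possible because the labels carry no replicate numbers. No array could be left out, since the 44 °C term needs both its arrays and any other loss leaves 0 residual degrees of freedom. Genes past 1.5-fold in the 44 °C pair numbered 280 at 1.3-fold, 3 at 2-fold, 108 and 10 with a mean level of at least 4 and 6, and 272 with no filter on level. In the same order the 37 °C pair gave 443, 7, 208, 56 and 450. Of these, 16, 0, 8, 2 and 17 kept their direction after 44 °C, 15, 0, 4, 1 and 19 turned, and 412, 7, 196, 53 and 414 did neither. A further quantile normalization left 1 of 119 turned. With the 41.5 °C pair as the reference 3 of 148 kept their direction and 0 turned. Of the genes past 1.5-fold at both 37 °C and 41.5 °C 2 kept it, 0 turned and 32 did neither, and of those called in limma 2 kept it and 1 turned, both sets chosen after seeing the data. Genes called by limma at 44 °C numbered 0 without the intensity trend (635 at an unadjusted p under 0.05), 6 after quantile normalization, 4 among genes with a mean of at least 5 and 0 in the additive model (733). For the difference of radiation terms they numbered 0 without the trend (807), 3 with robust moderation, 40 after quantile normalization and 0 after median centring (977). The shared term's 87 calls became 160 after quantile normalization and 0 without the trend (946). CLU stayed called at 44 °C in 4 of 6 alternatives (adjusted p from 4.88e-05 to 1.00). For the difference, CLU, VTRNA1-1 and SESN1 stayed called in 3 of 5, and GDF15 and PCNA-AS1 in 2 of 5, with the highest adjusted p at 0.882 for each. In limma 0 of the 5 changed sign. The causes were not tested. Median centring turned the split of the 44 °C genes from 20 higher and 23 lower to 23 and 18, and that at 37 °C from 53 and 59 to 47 and 67. All 92 recomputed medians of the 23 lists moved by less than 0.137, at most by 0.13.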
